A study of Mus musculus with 12 samples.

Results

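The 4 Lgi genes (Lgi1, Lgi2, Lgi3 and Lgi4) and the 3 genes of their Adam receptors (Adam11, Adam22 and Adam23) were followed in the hippocampus of adult mice. They were picked by symbol, and as a set because Lgi2 was lower in Kcnip3 KO-5xFAD than in Kcnip3 KO. All 7 were present among the 55385 genes of the raw count table, and all 7 were among the 15905 genes that passed the filter on low counts. The groups were WT, Kcnip3 KO (the -/- genotype), 5xFAD without the knockout, and the double mutant Kcnip3 KO-5xFAD, with 3 libraries in each and 12 in all. Kcnip3 encodes KChIP3, or DREAM, which binds calcium and acts on Kv4 potassium channels and, in the nucleus, on transcription. 5xFAD mice carry transgenes under Thy1 sequences, which are active mainly in neurons, and they deposit amyloid. Beyond adult, the labels give no age, and they name neither sex nor strain. They call the libraries of a genotype replicates without saying that each is a separate animal, so the p-values measure only the spread between these samples, which may be technical.

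LGI proteins are secreted glycoproteins built of leucine-rich repeats and a beta-propeller of EPTP repeats. ADAM11, ADAM22 and ADAM23 are membrane proteins of the ADAM (a disintegrin and metalloprotease) family that lack the active zinc site and serve as their receptors. LGI1 links postsynaptic ADAM22, which binds PSD-95, to presynaptic ADAM23 and keeps AMPA receptors and Kv1 potassium channels in place. Loss of LGI1 causes lateral temporal epilepsy, autoantibodies to it cause limbic encephalitis, and a truncation of LGI2 causes a juvenile epilepsy of dogs. LGI4 made by glia acts through ADAM22 on axons in the myelination of peripheral nerve. LGI3 is a neuronal and glial relative that also binds ADAM22 and ADAM23, and ADAM11 holds Kv1 channels at the terminals of cerebellar basket cells.

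Lgi2 fell in 5xFAD against WT, where it was the 1 member called by edgeR with all 12 libraries. Its low level in Kcnip3 KO-5xFAD is part of what chose the set and is given as a description. Of the receptors, Adam22 was lower in 5xFAD than in WT, just short of the threshold in edgeR. It was called in 6 of 23 alternative settings and sets of libraries. With a correction for transcript length and GC its log2 fold change went from -0.46 to -0.20, without a call. None of the 6 members other than Lgi2 was called by edgeR with all 12 libraries in the other tested comparisons. For Lgi2 those comparisons hold libraries that chose the set, so its values there are a description. Lgi4 was higher in Kcnip3 KO than in WT in every library, but the difference gave no call. The call for Lgi2 depended on which libraries were included and on the settings of the fit. Its direction was the same in each, but its groups did not overlap, so leaving out libraries could not reverse it.

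Depth ran from 7664407 to 11310714 counts per library, so a count of 3, the limit used here for a gene with no counts, equalled 0.271 to 0.425 CPM (counts scaled to a fixed library total and by the trimmed mean of M-values). Each member stood far above that limit, from 148 counts for Lgi4 to 4776 for Adam11 in single libraries. Such limits cover counting error only. The knocked-out gene was still counted in the libraries labelled Kcnip3 KO, at 71.4, 63.4 and 125 CPM against 158 to 162 CPM in WT, and at 68.7 to 84.9 CPM in Kcnip3 KO-5xFAD against 138 to 156 CPM in 5xFAD. The library labelled Kcnip3 KO 3, at 125 CPM, thus lay between the other Kcnip3 KO libraries and WT. Thy1, whose sequences drive the transgenes, set 2 libraries against their labels. It was at 2277 CPM in the library labelled WT 3, against 747 and 887 CPM in the other WT libraries, and at 926 CPM in the library labelled Kcnip3 KO-5xFAD 2, against 3381 and 2592 CPM in the others of that group. Mouse App was at 1186 to 1293 CPM in WT, and the ranges were 1248 to 1272 (Kcnip3 KO), 964 to 1133 (5xFAD) and 999.6 to 1139 CPM (Kcnip3 KO-5xFAD). Groups were kept as labelled, and results that rest on these libraries are also given without them. Markers of excitatory neurons, interneurons, dentate granule neurons and CA1 pyramidal neurons were present in every library, and no marker of any cell type list was at 0 in any library.

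Promoters are shown because KChIP3 is known to bind DNA at a site with the core GTCA. RefSeq windows could be matched for only 2 of the 7 members, Lgi2 and Adam22. These were also the members with the lowest levels in 5xFAD relative to WT. The sequences are the parts before the annotated start of each gene, on GRCm38.p6, 5′ to 3′ on the minus strand, on which both genes lie. Capitals mark GTCA or its reverse complement TGAC. The first is chr5:52566463-52566556 and the second is chr5:8368161-8368410.
Lgi2 promoter: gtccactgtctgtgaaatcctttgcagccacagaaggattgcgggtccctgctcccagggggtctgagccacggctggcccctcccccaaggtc
Adam22 promoter: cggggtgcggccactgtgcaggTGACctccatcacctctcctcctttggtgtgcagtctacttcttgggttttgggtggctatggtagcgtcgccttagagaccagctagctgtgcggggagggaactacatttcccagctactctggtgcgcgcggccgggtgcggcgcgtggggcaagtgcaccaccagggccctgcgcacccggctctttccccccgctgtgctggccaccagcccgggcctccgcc
The 94 bases of Lgi2 held neither GTCA nor TGAC, and 1 such match crossed the border of the window into the gene. The 250 bases of Adam22 held 1 TGAC. So short a motif is frequent: on either strand it occurred in 45.1% of 32851 promoter windows of 94 bases and in 80.2% of those of 250 bases. A match describes the letters only and is no evidence of binding.

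On the TPM scale, which corrects for transcript length and so allows a comparison between genes, Adam11 was the most abundant member. Its median over the 12 libraries was 201 TPM (178 to 264). Lgi3 followed at 152 TPM (122 to 211) and stood below Adam11 in 11 of 12 libraries. Lgi2 at 41.1 TPM (27.9 to 58.1) and Lgi1 at 36.9 TPM (31.6 to 45.2) came next. Their order differed with the label: Lgi2 was above Lgi1 in 6 of the 6 libraries labelled without 5xFAD and in 1 of the 6 labelled with it. The Kcnip3 KO and Kcnip3 KO-5xFAD libraries among these belong to the comparison that chose the set, so this order is a description. Adam22 was at 25.1 TPM (15.0 to 34.5), below Lgi1 in 12 of 12 libraries. The lowest were Lgi4 at 16.1 TPM (11.4 to 23.8) and Adam23 at 14.4 TPM (11.2 to 19.2), which overlapped, with Lgi4 above Adam23 in 9 of 12. Adam11 transcripts thus outnumbered those of the receptors of the LGI1 complex, Adam22 and Adam23, in all libraries.

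**Figure D1:**
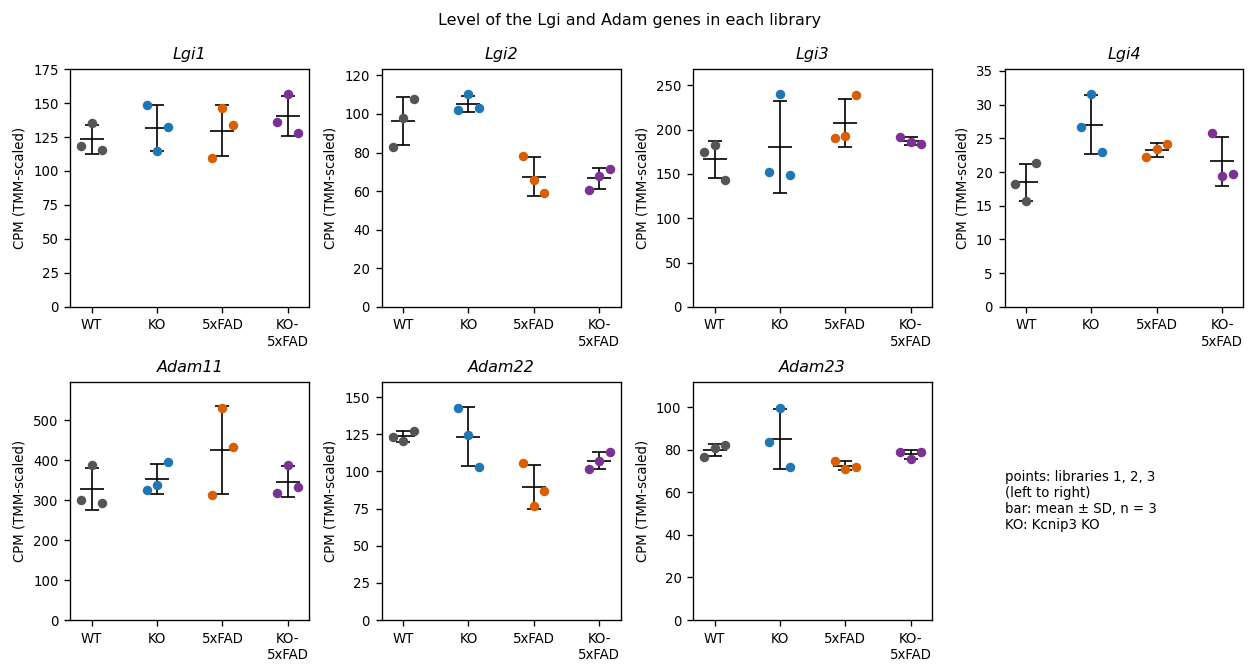
Level of each member in each library, in CPM scaled by the trimmed mean of M-values (vertical axes from 0); points are libraries 1, 2 and 3 of a group from left to right, and bars are the mean ± SD (n = 3). Lgi2 lies at 58.8 to 78.4 CPM in the 6 libraries labelled with 5xFAD and at 83.1 to 110.2 CPM in the 6 without.

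5xFAD against WT asks what the transgenes change where Kcnip3 is intact. Among the ligands, Lgi2 (ENSMUSG00000039252, GRCm38 chr5:52533517-52566462, minus strand) gave 83.1, 98.0 and 108 CPM in the WT libraries and 78.4, 65.5 and 58.8 CPM in those of 5xFAD. The groups did not overlap, but the lowest WT library and the highest 5xFAD library were close. Lgi2 fell from 96.3 ± 12.4 to 67.5 ± 9.96 CPM (mean ± SD, n = 3 each), a log2 fold change of -0.51 ± 0.12 (SE; 95% interval -0.77 to -0.25). With edgeR's quasi-likelihood test and Benjamini-Hochberg adjustment over all 15905 genes its adjusted p was 0.0397. That test takes its spread from all 12 libraries, among them those of the comparison that chose the set. With only the compared groups fitted, the log2 fold change was again -0.51 and gave no call (edgeR, adjusted p = 0.0704). With all 12 libraries Lgi2 was the 1 called member of 7, in a comparison in which 3.53% of all tested genes were called and 1.62% were called lower.

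The other ligands gave no call. Lgi1 (ENSMUSG00000067242, chr19:38264536-38312214, plus strand), the ligand at the excitatory synapse, gave 118, 136 and 116 CPM in the WT libraries and 109, 146 and 134 CPM in those of 5xFAD. Its libraries were interleaved, and the log2 fold change was 0.08 ± 0.13 (edgeR, adjusted p = 0.742, 95% interval -0.20 to 0.35). Lgi3 (ENSMUSG00000033595, chr14:70530685-70538324, plus strand) gave 174, 182 and 143 CPM in the WT libraries and 191, 193 and 239 CPM in those of 5xFAD. All 3 of its 5xFAD libraries lay above WT, by little in 2 of them, and its log2 fold change was 0.32 ± 0.16 (edgeR, adjusted p = 0.243). Lgi4 (ENSMUSG00000036560, chr7:31059342-31070935, plus strand), the glial ligand of peripheral nerve, gave 18.3, 15.7 and 21.3 CPM in the WT libraries and 22.2, 23.4 and 24.2 CPM in those of 5xFAD. Here too the groups did not overlap, and the log2 fold change was 0.34 ± 0.16 (edgeR, adjusted p = 0.197). The gene Fxyd3 overlaps the end of Lgi4 on the opposite strand and held 4 to 20 counts per library, against 148 to 267 for Lgi4. Whether the counting used strand is not given in the sources used here, so reads in the overlap cannot be told apart.

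Among the receptors, Adam22 (ENSMUSG00000040537, chr5:8072352-8368160, minus strand), which anchors the complex to PSD-95, gave 123, 120.3 and 128 CPM in the WT libraries and 105, 76.4 and 87.0 CPM in those of 5xFAD. All 3 of its 5xFAD libraries were below the WT libraries, which were close together. The means were 124 ± 3.65 and 89.6 ± 14.7 CPM, and the log2 fold change of -0.46 ± 0.13 missed the threshold (edgeR, adjusted p = 0.0569). Adam23 (ENSMUSG00000025964, chr1:63445891-63596276, plus strand), the presynaptic receptor, gave 76.7, 80.9 and 82.3 CPM in the WT libraries and 74.8, 70.9 and 72.0 CPM in those of 5xFAD. These groups did not overlap either, yet the difference was small, -0.14 ± 0.11 (edgeR, adjusted p = 0.425, 95% interval -0.37 to 0.09). Adam11 (ENSMUSG00000020926, chr11:102761439-102780262, plus strand) gave 301, 387 and 293 CPM in the WT libraries and 313, 532 and 432 CPM in those of 5xFAD. Its 5xFAD libraries spread widely, around a log2 fold change of 0.38 ± 0.17 (edgeR, adjusted p = 0.181).

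In all, 5 of the 7 members did not overlap between 5xFAD and WT (Lgi2, Lgi3, Lgi4, Adam22 and Adam23), which was the case for 27.6% of all tested genes. There were 4 of 7 at an unadjusted p under 0.05, beside 25.3% of all genes. The members differed in direction, with 4 of 7 higher in 5xFAD. The members' median log2 fold change of 0.08 stood beside 0.01 for all tested genes.

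**Figure D2:**
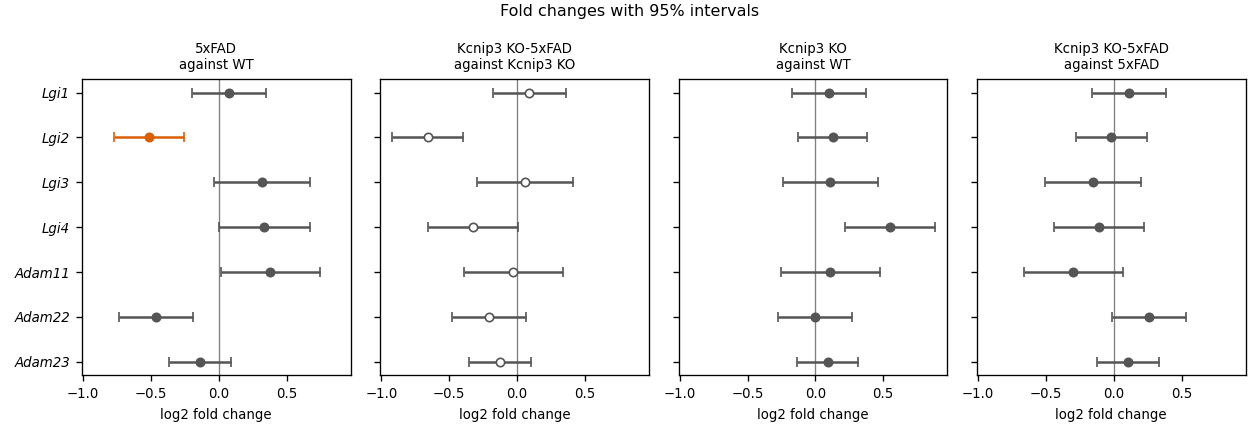
Log2 fold change of each member (horizontal axis) with its 95% interval in 4 comparisons; the orange point passed the test over all genes, filled grey points did not, and open points belong to the comparison that chose the set and were not tested. Lgi2 lies at -0.51 in 5xFAD against WT, and in Kcnip3 KO against WT the interval of Lgi4 alone lies clear of 0. In Kcnip3 KO against WT and in Kcnip3 KO-5xFAD against 5xFAD the points of Lgi2 share libraries with the comparison that chose the set and are a description.

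The call for Lgi2 rested on which samples were fitted and on the settings of the fit. Over 23 alternative settings and sets of libraries it was lower in 5xFAD in 23, with log2 fold changes of -0.65 to -0.35 and adjusted p from 0.00215 to 0.286, and it was called in 12. Its WT and 5xFAD libraries did not overlap, so leaving out libraries could not reverse that direction. Without the library labelled WT 3, which was the highest WT library for Lgi2 (108 CPM) and whose Thy1 level lay between those of the other WT libraries and 5xFAD, the log2 fold change was -0.43 and was not called. Without WT 3 and Kcnip3 KO-5xFAD 2 it was also -0.43 (edgeR, adjusted p = 0.177), between 90.5 ± 10.6 CPM in WT (n = 2) and 67.5 ± 9.96 CPM in 5xFAD. It was also not called without WT 1 (-0.61), WT 2 (-0.51), 5xFAD 2 (-0.51), 5xFAD 3 (-0.42) or Kcnip3 KO-5xFAD 3 (-0.51). Nor was it called with only the compared groups (-0.51; edgeR, adjusted p = 0.0704). With a correction for transcript length and GC it was at -0.41, with or without the replicate block, and not called. Calls over all genes moved too, from 562 to 1 without WT 1, 5xFAD 2 or 5xFAD 3. Adam22, whose groups did not overlap either, was lower in 23 of 23 such settings (-0.62 to -0.20, adjusted p 0.00583 to 0.438) and was called in 6 of them. With all 12 libraries these were DESeq2's Wald test (-0.47, adjusted p = 0.0140), the replicate block (-0.47, edgeR, adjusted p = 0.0384) and no filter on low counts (-0.45, edgeR, adjusted p = 0.00583). Without a filter Adam11 was called as well (0.40, edgeR, adjusted p = 0.0185). Without 5xFAD 1 Adam22 was at -0.60 and called, as was Adam11 at 0.56.

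The length and the GC content of the transcripts moved with the change between these groups. Genes called lower in 5xFAD had a median of 4856.5 bases in their longest transcript and those called higher 2043.5 bases, against 3273 bases for all tested genes. Their median GC content was 43.0% (called lower) and 53.4% (called higher), against 49.9% for all tested genes. Adam22 (44.8%), Lgi1 (44.7%) and Adam23 (47.2%) were below that median, Lgi2 (50.3%) was near it, and Lgi4 (56.2%), Lgi3 (57.2%) and Adam11 (60.1%) were above it. With transcript length and GC taken out by a smooth term for each library, Lgi2 stood at -0.41 (adjusted p = 0.083) and Adam22 at -0.20 (adjusted p = 0.25), both in the edgeR fit. The value for Lgi1 became 0.35 and that for Adam23 0.04, while Lgi3 (0.18), Lgi4 (0.24) and Adam11 (0.34) came closer to 0. The difference for Adam22 thus shrank more than that for Lgi2.

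**Figure D3:**
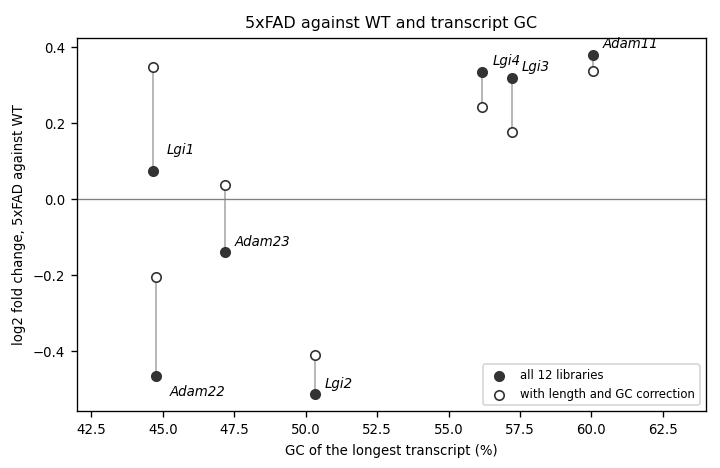
Log2 fold change of the 7 members in 5xFAD against WT (vertical axis) by the GC content of the longest transcript (horizontal axis), with all 12 libraries (filled) and with the length and GC correction (open). Lgi2 moves from -0.51 to -0.41 and Adam22 from -0.46 to -0.20.

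Kcnip3 KO-5xFAD against Kcnip3 KO is the comparison that chose the set, so its values are a description and carry no test. Lgi2 gave 102, 110.2 and 103 CPM in the Kcnip3 KO libraries and 60.5, 67.8 and 71.3 CPM in those of Kcnip3 KO-5xFAD. The Kcnip3 KO libraries were close together, and each was well above each library of the other group. The means were 105 ± 4.37 and 66.6 ± 5.50 CPM, a log2 fold change of -0.66 ± 0.12 or a difference of -36.7%. Leaving out any 1 library gave -0.71 to -0.60, and leaving out WT 3 and Kcnip3 KO-5xFAD 2 gave -0.67, as did leaving out Kcnip3 KO 3. Lgi2 was the 1 member of 7 without overlap, beside 15.6% of all tested genes, and edgeR called 0.0% of tested genes in this comparison. At an unadjusted p under 0.05 there were 1657 genes, and DESeq2 called 135.

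The remaining members differed less in that comparison. For Lgi4 the Kcnip3 KO libraries gave 26.7, 31.5 and 22.9 CPM and those of Kcnip3 KO-5xFAD 25.7, 19.3 and 19.6 CPM (-0.32 ± 0.15). For Adam22 they gave 143, 124 and 103 CPM, and 101, 107 and 113 CPM (-0.20 ± 0.13). Both overlapped between the groups. Adam23 (-0.13), Adam11 (-0.03), Lgi3 (0.06) and Lgi1 (0.09) had log2 fold changes nearer to 0. For Lgi3 and Adam23 the value depended on the library labelled Kcnip3 KO 2, the highest of its group for both, without which they were at 0.32 and 0.00.

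Over all 12 libraries, Lgi2 was at 83.1 to 110.2 CPM in the 6 labelled without 5xFAD and at 58.8 to 78.4 CPM in the 6 labelled with it. Of these, 6 libraries belong to the comparison that chose the set, so the separation is a description from which nothing is read. Lgi2 was the 1 member of 7 without overlap between these sets of libraries, beside 2.57% of all tested genes. The 2 libraries whose Thy1 went against their labels lay with their labelled groups for Lgi2. Kcnip3 KO-5xFAD 2 is itself part of the comparison that chose the set, so nothing about the labels is read from this. The library labelled WT 3 was at 108 CPM and the library labelled Kcnip3 KO-5xFAD 2 at 67.8 CPM. In the plot of Lgi2 against Thy1 they lie apart from the others along the Thy1 axis but within their groups along the Lgi2 axis.

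**Figure D4:**
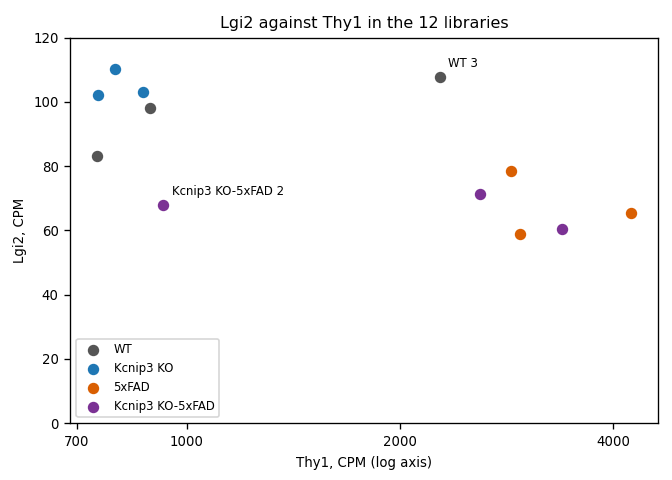
Lgi2 level (vertical axis, CPM from 0) against Thy1 level (horizontal log axis, CPM) in the 12 libraries, coloured by genotype. The libraries labelled WT 3 (Thy1 2277, Lgi2 108 CPM) and Kcnip3 KO-5xFAD 2 (Thy1 926, Lgi2 67.8 CPM) lie apart from the rest of their genotype for Thy1 but not for Lgi2. Nothing about the labels is read from Lgi2, which chose the set.

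The make-up of the ligand pool is given by group. Of the summed TPM of the 4 Lgi genes, Lgi2 made up 20.5% ± 3.38 for WT and 20.5% ± 2.46 for Kcnip3 KO (mean ± SD, n = 3 each). It made up 13.1% ± 2.80 for 5xFAD and 13.6% ± 1.33 for Kcnip3 KO-5xFAD. The libraries ranged from 17.7% to 24.3% in the groups without 5xFAD and from 10.3% to 15.9% in those with it. Lgi3 held the largest share, on average 58.9% for WT and 57.1% for Kcnip3 KO, against 66.2% and 63.7% for 5xFAD and the double mutant. Mean Lgi2 was at 49.8 TPM in WT and 31.8 TPM in 5xFAD, and mean Lgi3 at 144 and 163 TPM. In Kcnip3 KO and the double mutant mean Lgi2 was at 54.3 and 32.9 TPM and mean Lgi3 at 156 and 155 TPM. Lgi2 exceeded Lgi1 on the TPM scale in each WT and each Kcnip3 KO library and in the library labelled 5xFAD 1, and was below Lgi1 in the other 5xFAD libraries and in all of Kcnip3 KO-5xFAD. These shares contain the comparison that chose the set and were not tested.

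**Figure D5:**
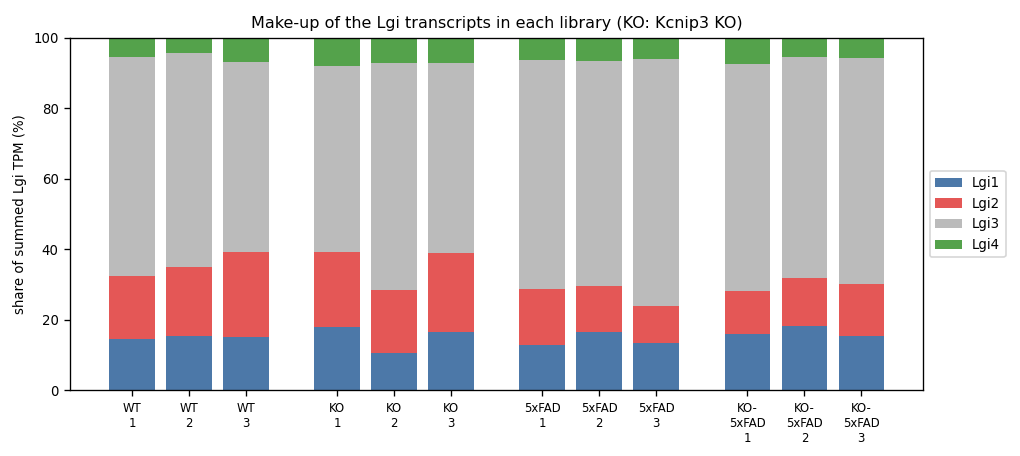
Share of each Lgi gene in the summed TPM of the 4 Lgi genes (vertical axis, %), 1 bar for each library, grouped by genotype. The Lgi2 segment is 17.7% to 24.3% in WT and Kcnip3 KO and 10.3% to 15.9% in 5xFAD and Kcnip3 KO-5xFAD.

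Kcnip3 KO against WT asks what loss of Kcnip3 changes without the transgenes. None of the 6 members other than Lgi2 was called (edgeR), where 0.0503% of all tested genes were, and none was called by DESeq2 or limma-voom. At an unadjusted p under 0.05 the edgeR fit had 1 of the 6, Lgi4, beside 4.51% of all genes. Lgi4 gave 18.3, 15.7 and 21.3 CPM in the WT libraries and 26.7, 31.5 and 22.9 CPM in those of Kcnip3 KO. Every Kcnip3 KO library was above every WT library, as for 4.58% of tested genes, and 9.46% did not overlap in either direction. The means were 18.4 ± 2.79 and 27.0 ± 4.33 CPM, and the log2 fold change of 0.55 ± 0.16 had an adjusted p of 0.775 (edgeR). It was 0.43 to 0.67 when single libraries were left out, and 0.66 without Kcnip3 KO 3. Summed markers of oligodendrocytes were at 3492 to 5811 CPM in WT and 4595 to 8812 CPM in Kcnip3 KO, with the highest value in the library labelled Kcnip3 KO 2, which was also highest for Lgi4 (31.5 CPM) and Lgi3 (239.8 CPM). The part of the cell mix in these levels was not tested, and in bulk tissue fewer cells of a type and less RNA per cell cannot be told apart.

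For the members other than Lgi4 the log2 fold changes in Kcnip3 KO against WT ran from -0.00 (Adam22) to 0.13 (Lgi2). Lgi2 was at 105 ± 4.37 CPM against 96.3 ± 12.4 CPM in WT, an interval of -0.13 to 0.38 on the log2 scale. The Kcnip3 KO libraries of Lgi2 also entered the comparison that chose the set, so its values here are a description. The interval for Adam22 was -0.27 to 0.27, and it overlapped fully between the groups.

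Kcnip3 KO-5xFAD against 5xFAD asks what loss of Kcnip3 changes in the presence of the transgenes. None of the 6 members other than Lgi2 was called (edgeR), where 0.0692% of all tested genes were, and DESeq2 and limma-voom called none of them either. At an unadjusted p under 0.05 there were 0 of the 6, beside 10.4% of all genes. Lgi2 was at 67.5 ± 9.96 CPM in 5xFAD and 66.6 ± 5.50 CPM in Kcnip3 KO-5xFAD, a log2 fold change of -0.02 ± 0.12 with an interval of -0.28 to 0.24, and its libraries were interleaved. Here too the Kcnip3 KO-5xFAD libraries entered the comparison that chose the set, so the values of Lgi2 are a description. Adam22 gave 105, 76.4 and 87.0 CPM in the 5xFAD libraries and 101, 107 and 113 CPM in those of Kcnip3 KO-5xFAD (0.26 ± 0.13; edgeR, adjusted p = 0.503). One 5xFAD library thus reached the range of the other group. Adam11 had a log2 fold change of -0.30 ± 0.17 (edgeR, adjusted p = 0.551). Adam23 was the 1 member without overlap, beside 16.3% of all genes, at 70.9 to 74.8 CPM in 5xFAD and 75.6 to 79.2 CPM in Kcnip3 KO-5xFAD, a small difference of 0.10 ± 0.11 (edgeR, adjusted p = 0.726). For Lgi3 (-0.15), Lgi4 (-0.11) and Lgi1 (0.11) the log2 fold changes were also small.

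The interaction compares the 5xFAD effect with and without Kcnip3. It called none of the 6 members other than Lgi2 (edgeR), as it called 0.0% of all genes. DESeq2, which called 6 genes in all, and limma-voom called none of these members. At an unadjusted p under 0.05 there was 1 of the 6, Lgi4, beside 5.26% of all genes. Lgi4 was higher in 5xFAD than in WT by 0.34 and lower in Kcnip3 KO-5xFAD than in Kcnip3 KO by 0.32 on the log2 scale, which gave an interaction of -0.66 ± 0.22 (edgeR, adjusted p = 0.853). For Adam11 the interaction was -0.41 ± 0.24 and for Adam22 0.26 ± 0.18. For Lgi2, whose interaction contains the comparison that chose the set, it was -0.15 ± 0.17 with no test given (95% interval -0.51 to 0.22).

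The binding partners of the complex were read from a list of 25 genes, all of which were tested. In 5xFAD against WT edgeR called 2 of them lower and 0 higher. Of all tested genes 3.53% were called and 1.62% were called lower. There were 9 of 25 at an unadjusted p under 0.05, beside 25.3% of all genes. Of these 9, Kcnab2 (log2 fold change 0.56), Cacng8 (0.51) and Gria1 (0.39) were higher in 5xFAD without a call, and the rest were lower. Gria4, an AMPA receptor subunit, gave 69.4, 69.0 and 71.8 CPM in the WT libraries and 50.8, 33.2 and 39.8 CPM in those of 5xFAD, without overlap (-0.76 ± 0.18; edgeR, adjusted p = 0.0426). Dlg1, which encodes the scaffold SAP97 of the PSD-95 family, gave 110.2, 94.0 and 122 CPM in the WT libraries and 91.7, 57.0 and 65.5 CPM in those of 5xFAD (-0.61 ± 0.16; edgeR, adjusted p = 0.0494), with 1 5xFAD library just under the lowest WT library. Both calls depended on the libraries and settings: over 23 alternatives Gria4 was called in 12 (-0.93 to -0.57) and Dlg1 in 8 (-0.82 to -0.33). Neither was called without the library labelled WT 1, WT 3, 5xFAD 2, 5xFAD 3 or Kcnip3 KO-5xFAD 3, nor with log2 TPM. With the length and GC correction, where neither was called, Gria4 was at -0.57 and Dlg1 at -0.37. Gria4 alone lost its call without WT 2 (-0.78), and Dlg1 alone with only the compared groups (-0.60) and without Kcnip3 KO 2 (-0.61), Kcnip3 KO 3 (-0.61), Kcnip3 KO-5xFAD 1 (-0.60) or Kcnip3 KO-5xFAD 2 (-0.61). Of the 25 partners 18 had a lower and 7 a higher mean in 5xFAD. The median log2 fold change of the 25 was -0.17, against 0.01 for all genes, of which 48.3% were lower. These values and those by role below come from the fit without the length and GC correction. The part of transcript length and GC in them was not tested.

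By role, 5 of the 7 AMPA receptor genes and auxiliary subunits were lower in 5xFAD, with a median of -0.40, and Gria4 was the called one. Kv1 channel genes were lower in 4 of 5 (median -0.23), with none called. Genes of 14-3-3 proteins, which bind phosphorylated ADAM22, were lower in 5 of 6 (median -0.11), with none called. Of the 2 adhesion genes in the list 1 was lower (median 0.02), and the gene of the Nogo receptor was higher (0.06), with none called. Scaffold genes of the PSD-95 family were lower in 3 of 4 (median -0.19), and Dlg1 was the called one. Dlg4, the gene of PSD-95 itself, had a log2 fold change of 0.20 (edgeR, adjusted p = 0.385). In Kcnip3 KO against WT 0 of 25 partners were called (2 at an unadjusted p under 0.05, beside 4.51% of all genes), and the smallest p-values belonged to Kcna1 (0.71) and Cntn2 (0.38). In Kcnip3 KO-5xFAD against 5xFAD 0 of 25 were called (3 at an unadjusted p under 0.05, beside 10.4% of all genes), 18 had a higher mean and the median was 0.07, with Gria2 (0.48) and Gria4 (0.47) first by p. The interaction also called 0 of 25 (1 at an unadjusted p under 0.05, beside 5.26% of all genes), with Gria4 at 0.64 and Gria2 at 0.49. DESeq2 called 0 of 25 in these 3 comparisons as well.

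Of 15 other ADAM genes, 9 were tested, and none was called in 5xFAD against WT, in Kcnip3 KO against WT, in Kcnip3 KO-5xFAD against 5xFAD or in the interaction (edgeR). At an unadjusted p under 0.05 the numbers were 2, 0, 1 and 0 of 9, beside 25.3%, 4.51%, 10.4% and 5.26% of all genes in the same order. DESeq2 and limma-voom also called 0 of the 9 in each of these comparisons. Adam15 (0.35; edgeR, adjusted p = 0.0979) and Adam9 (-0.37; edgeR, adjusted p = 0.139), both of which keep the zinc site, had the smallest p-values in 5xFAD against WT. In Kcnip3 KO against WT these were Adam33 (-1.04) and Adam19 (0.50), and in Kcnip3 KO-5xFAD against 5xFAD Adam15 (-0.27) and Adam12 (0.44). In the interaction they were Adam33 (1.32) and Adam19 (-0.52).

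Levels of cell type markers differed between the groups of the Lgi2 comparison. Summed microglial markers were at 343 to 532 CPM in WT and 915 to 1101 CPM in 5xFAD, with 5 of 6 called higher, beside 1.91% of all tested genes. The library labelled WT 3 held the 532 CPM, against 362 and 343 CPM in the other WT libraries. In Kcnip3 KO-5xFAD they were at 932, 419 and 738 CPM in libraries 1, 2 and 3. Microglial markers thus also set apart WT 3 and Kcnip3 KO-5xFAD 2, the libraries whose Thy1 went against their labels. Oligodendrocyte markers (3492 to 5811 CPM in WT, 5946 to 8261 CPM in 5xFAD) and astrocyte markers (3755 to 4049 and 4057 to 4593 CPM) were also higher, with 0 of 8 and 0 of 6 called. Neither sum overlapped, but the nearest libraries were close, and 27.6% of all tested genes did not overlap either. CA1 pyramidal markers were at 274 to 413 CPM in WT and 369 to 537 CPM in 5xFAD, dentate granule markers at 144 to 167 and 147 to 217 CPM, and excitatory neuron markers at 4313 to 5328 and 4880 to 6895 CPM. Each of these 3 lists overlapped between the groups, with none called. Interneuron markers summed to 791 to 863 (WT), 878 to 1032 (Kcnip3 KO), 670.3 to 855 (5xFAD) and 763 to 903 CPM (Kcnip3 KO-5xFAD), with 0 of 7 called in any of these comparisons. Markers of cortex, striatum or thalamus, a measure of neighbouring tissue, summed to 139 to 202, 130.0 to 299, 89.1 to 195 and 114 to 157 CPM in the same order. Choroid plexus markers ranged from 105 to 9002 CPM over the libraries, with low values in WT 3, 5xFAD 2, Kcnip3 KO-5xFAD 1 and Kcnip3 KO-5xFAD 2. The part of these differences in the level of Lgi2 was not tested.

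Across the 12 libraries, which share genotype groups and depth, Lgi2 and Adam22 had a Pearson's r of 0.73 on log2 CPM. Adam22 and Adam23 were at 0.67 and Adam11 and Adam22 at -0.78. The 3 genes with the pattern most like each member were ranked by the same r over 12 libraries among all tested genes. They were Irgq (0.95), Rhobtb2 (0.94) and Map3k9 (0.93) for Lgi2, and Mfsd6 (0.98), Hdac9 (0.97) and Crim1 (0.97) for Adam22. For Adam11 they were Mdh2 (0.97), Mlf2 (0.96) and Chst8 (0.96), and for Adam23 Wasf3 (0.89), Washc5 (0.88) and Adcy5 (0.86). For the other ligands they were Gabra5 (0.91), Crls1 (0.91) and Kctd4 (0.90) beside Lgi1, Myh14 (0.95), Gpr108 (0.94) and Yif1a (0.91) beside Lgi3, and Nemp1 (0.87), Phkg2 (0.84) and Gpld1 (0.81) beside Lgi4. Such values are the top of a ranking of all genes and describe these libraries only.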

How the data were processed

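RNA of the hippocampus was sequenced in 12 libraries, 3 for each of 4 genotypes, with a TruSeq mRNA kit, per the labels. The deposited table of raw read counts per Ensembl gene was the source of all tests. The deposited second table, log2 TPM as the authors computed it, served for levels between genes and as an alternative. Tools named in the submitters' processing notes are HISAT2 2.1.0, featureCounts, edgeR 3.38.4, R 4.2.1 and FastQC 0.11.9, with the build mm10. For the annotation, strand setting and gene lengths: not given in the sources used here.

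Symbols, positions and transcript GC came from GENCODE M21 (GRCm38), which matched 55144 of 55385 genes. The other 241 held 0.00278% of the counts. The counts were fitted in edgeR 4.0.16 (R 4.3.3), over all 12 libraries at once, with 1 coefficient for each genotype, TMM scaling, filterByExpr and a robust quasi-likelihood test. Adjusted p-values are Benjamini-Hochberg values over 15905 genes, and called means an adjusted p under 0.05. The common biological coefficient of variation was 0.144. Levels are TMM-scaled CPM, and log2 fold changes are ± SE. The fit was tested on simulated data.

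The members and lists were chosen with earlier results of these data known. Named were all members, Kcnip3, Thy1, App, up to 3 called genes of each list in each direction (else the 2 with the smallest p), and the 3 genes most like each member. Dlg4, Kcnab2, Cacng8 and Gria1 were added after their values were seen. Alternatives were DESeq2 size factors and its Wald test (DESeq2 1.42.0), limma-voom and limma on log2 TPM (limma 3.58.1), no filter, only the compared groups, a replicate block, a length and GC correction, and leaving out each library. Leaving out the 2 libraries with discordant Thy1 was added after seeing the data.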

Additional observations from a re-analysis of the deposited data

How the results depend on the processing

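The number of the 7 members called in 5xFAD against WT was 1, and it was 3 without a filter, 2 with DESeq2's Wald test, 2 with the replicate block, and 0 with only the compared groups, with the length and GC correction with or without the block, and after leaving out both libraries whose Thy1 went against the label, with or without that correction. Leaving out 1 library gave 0 to 3. In Kcnip3 KO-5xFAD against Kcnip3 KO, which chose the set, no member was tested. Partners called in 5xFAD against WT numbered 2, and 8 without a filter, 4 with DESeq2, 4 with the block, 1 with only the compared groups, and 0 with log2 TPM, with the correction with or without the block, and without the 2 libraries with or without the correction (0 to 7 when 1 library was left out). In Kcnip3 KO-5xFAD against 5xFAD 2 partners were called without a filter, against 0.

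The calls over all genes in 5xFAD against WT were 562, and 2131 without a filter, 1431 with DESeq2, 238 with log2 TPM, 1234 with the block, 96 with the correction, 115 with both, 209 without the 2 libraries and 196 with the correction as well (1 to 2117 when 1 library was left out). In Kcnip3 KO against WT they were 8, and 324 without a filter, 29 with DESeq2 and 15 with only the compared groups (7 to 13). In Kcnip3 KO-5xFAD against 5xFAD they were 11, and 351 without a filter, 29 with DESeq2 and 6 without the 2 libraries (6 to 12). In Kcnip3 KO-5xFAD against Kcnip3 KO they were 0, and 721 without a filter, 135 with DESeq2, 1 with the block and correction, 209 without the 2 libraries and 213 with the correction as well (0 to 193). In the interaction they were 0, and 272 without a filter, 6 with DESeq2, 1 with the block, 1 with block and correction and 1 without the 2 libraries (0 to 4).

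Small uncalled log2 fold changes changed sign. With the correction, the correction and block, and the correction without the 2 libraries, Adam23 was at 0.037, 0.038 and 0.028 in 5xFAD against WT (-0.14), at -0.039, -0.037 and -0.041 in Kcnip3 KO-5xFAD against 5xFAD (0.10) and at -0.067, -0.059 and -0.060 in the interaction (0.01). Under the same settings Lgi1 was at -0.12, -0.11 and -0.22 in Kcnip3 KO-5xFAD against 5xFAD (0.11) and at -0.16, -0.17 and -0.18 in the interaction (0.02). In the interaction Adam23 was also at -0.0031 without a filter, and Lgi1 at -0.0032 without a filter and -0.026 without the 2 libraries. With log2 TPM Lgi1 was at -0.073 in 5xFAD against WT (0.08) and Lgi2 at 0.063 in Kcnip3 KO-5xFAD against 5xFAD (-0.02). Without the 2 libraries Adam22 was at 0.021 in Kcnip3 KO against WT (-0.00), and with the correction as well Lgi1 was at -0.044 there (0.10) and Lgi4 at 0.0078 in Kcnip3 KO-5xFAD against 5xFAD (-0.11). Leaving out 1 library gave Lgi1 -0.027 to 0.18 in 5xFAD against WT, Adam22 -0.12 to 0.11, Lgi3 -0.15 to 0.23 and Adam23 -0.039 to 0.20 in Kcnip3 KO against WT, Lgi2 -0.12 to 0.10 in Kcnip3 KO-5xFAD against 5xFAD, and Lgi1 -0.094 to 0.11 and Adam23 -0.095 to 0.14 in the interaction. The cause was not tested.

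Deviations of same-numbered libraries from their group means had an r of -0.32 to 0.246 over 18 pairs (median -0.033), 6 of them above 0.1. For libraries of different number r was -0.376 to 0.294 over 36 pairs (median 0.0065), 9 of them above 0.1. The labels' numbers were not taken as pairs. With the replicate block 2 members, Lgi2 and Adam22, were called in 5xFAD against WT, and the calls over all genes went from 562 to 1234. Where 1 arm keeps 2 libraries, its spread is taken from all groups. With 3 libraries in each group, a missed threshold does not show equal levels.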
